A study of Mus musculus with 16 samples.

Results

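The genes described are 47 genes of the synaptic vesicle release machinery: SNARE proteins and their regulators, synaptotagmins and other calcium sensors, active zone scaffolds, Rab3 GTPases, proteins of the vesicle membrane and surface, and vesicular glutamate transporters. They were chosen by name, and a probe was taken as theirs where its accession belonged to a member gene. That gave 70 probes for 46 of the 47 genes, out of 56605 probes on the array, 32994 of them named and standing for 22911 genes. No probe was matched to Syt5. After the filter on dim probes and spots marked as outliers, 68 probes remained and all 46 genes kept at least 1, against 16737 genes kept over the whole array. Of the 68 kept probes, 67 were well above background on all 16 arrays.

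Total RNA from the cerebellar cortex of 16 mice, 1 array per mouse, was measured in 4 groups of 4: Atm-/- mice and their WT littermates, each with NR (Atm-/- NR, WT NR) or without it (Atm-/- veh, WT veh). The mice came from a strain labelled B6;129S4-Atmtm1Bal/J, a mixed background in which Atm is disrupted in every cell. The NR groups drank nicotinamide riboside (NR), a precursor of NAD+, at 3.5 mg/ml (12 mM) for 2 months from 6 weeks of age, and the veh groups drank water. All mice were 3.5 months old and labelled male. The design asks what loss of Atm, the kinase mutated in ataxia-telangiectasia, does to cerebellar RNA, and what NR does in each genotype.

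Neurotransmitter is released when a synaptic vesicle fuses with the membrane of the nerve terminal. Vesicles are filled by transporters, tethered and primed at the active zone by scaffold proteins such as Bassoon, Piccolo, RIM and Munc13, and fused by SNARE proteins that zip together when calcium binds synaptotagmin. NSF and its SNAP cofactors then take the SNARE complex apart for another round. In the cerebellum, granule cells load glutamate with VGLUT1 (Slc17a7), and neurons of the brain stem and deep nuclei mostly with VGLUT2 (Slc17a6).

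The arrays lay on 2 slides, 1 for each genotype, with the veh arrays in row 1 and the NR arrays in row 2 of both. Genotype and slide therefore cannot be told apart, nor can NR and the row. Atm was read by 2 kept probes. On the dimmer one, all 8 Atm-/- arrays (7.72 to 8.08) lay below all 8 WT arrays (8.52 to 9.03). On the brighter one, 7 Atm-/- arrays lay between 8.61 and 8.82, below the WT arrays (8.88 to 9.27), but Atm-/- NR 2 measured 9.23, above 7 of the 8 WT arrays, and Atm was called neither in Atm-/- veh against WT veh (-0.35, adjusted p = 0.221) nor in Atm-/- NR against WT NR (-0.12, adjusted p = 1). Probes well above background numbered 34945 to 37817 on the Atm-/- NR arrays and 39134 to 41905 on the Atm-/- veh arrays, without overlap, and 36402 to 42559 on the WT arrays. All mice were labelled male, but Uty, Kdm5d and Eif2s3y, genes of the Y chromosome, were all below the detection limit on 4 arrays: Atm-/- NR 4, Atm-/- veh 3, WT NR 4 and WT NR 1. On WT veh 4, the markers of forebrain neurons (mean over 9 kept genes 3.98 above their own average, log2) and of choroid plexus and ependyma (3.22 above, over 8 genes) were the highest of all arrays. The 8 neuronal markers Rbfox3, Tubb3, Map2, Nefl, Nefm, Nefh, Eno2 and Stmn2 were measured in every group, and their mean stayed within -0.11 to 0.33 of its average. All values below are log2 signals after quantile normalization, read on the brightest kept probe of a gene unless stated, and differences were called at an adjusted p under 0.05 by limma over all 37253 kept probes. In RNA from whole tissue, fewer cells of a type and less RNA per cell cannot be told apart.

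**Figure D1:**
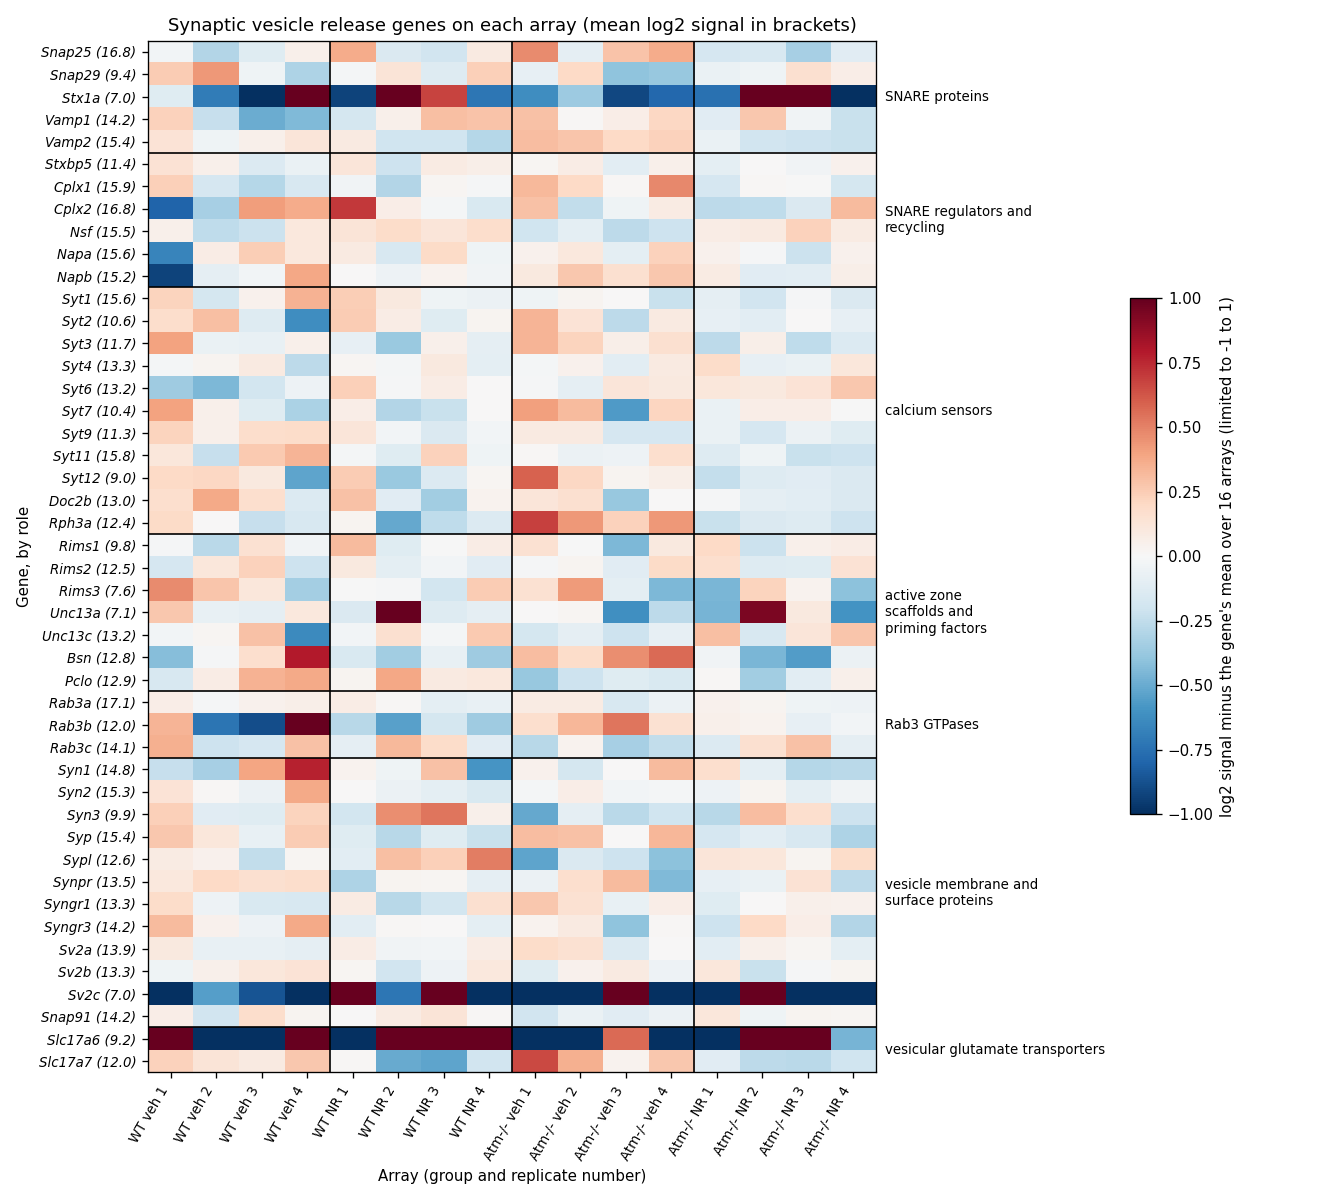
Heat map of the 46 measured genes (rows, by role, with the mean log2 signal in brackets) on the 16 arrays (columns, by group). Colour is the log2 signal minus the gene's own mean over all arrays, limited to -1 to 1. Most rows are pale, while Slc17a6, Stx1a and Sv2c change from deep blue to deep red between arrays of the same group.

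For 43 of the 46 genes the whole range over 16 arrays was between 0.25 and 2.35 log2 units (median 0.77), and it was under 1 for 32. Rab3a, the GTPase that ties vesicles to the active zone, had the narrowest range on its brightest probe, from 16.92 to 17.17. A dimmer Rab3a probe ran from 12.97 to 13.67. The other 3 genes, Slc17a6, Stx1a and Sv2c, ranged over more than 5 units and are described separately.

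Genes of the release machinery were called in 1 of the 5 comparisons of the design, that of NR in the Atm-/- mice. Of the 46 genes, 6 (13%) were called between Atm-/- NR and Atm-/- veh, beside 11.5% of all 16737 genes, so the share was near that of the whole array. The transcripts of Vamp2, Syp, Slc17a7 and Rph3a fell and those of Sypl and Nsf rose. Over all genes, 4.8% fell and 6.67% rose. The arrays of the 2 groups did not overlap for 13 of the 46 genes, 10 of them lower and 3 higher under NR, beside 26.3% of all genes (10.3% lower and 16% higher). The median log2 difference was -0.07 over the 46 genes and 0.04 over all genes, and 30 of the 46 lay below 0, beside 45.1% of all genes. Leaving out 1 array at a time gave 2 to 7 called genes: only Rph3a and Vamp2 without array 3 or 4 of Atm-/- NR or array 1 or 4 of Atm-/- veh, and these and Syp without Atm-/- NR 2. Calls over the whole array fell as well. With all arrays, 3366 of 37253 probes were called. Without Atm-/- veh 1 or Atm-/- veh 4 it was 862 or 1317. Without Atm-/- NR 2, Atm-/- NR 3 or Atm-/- NR 4 it was 1508, 904 or 1993. On the 12 arrays with signal of Y-linked genes, 3 genes were called (Rph3a, Slc17a7 and Vamp2), beside 1.51% of all genes.

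**Figure D2:**
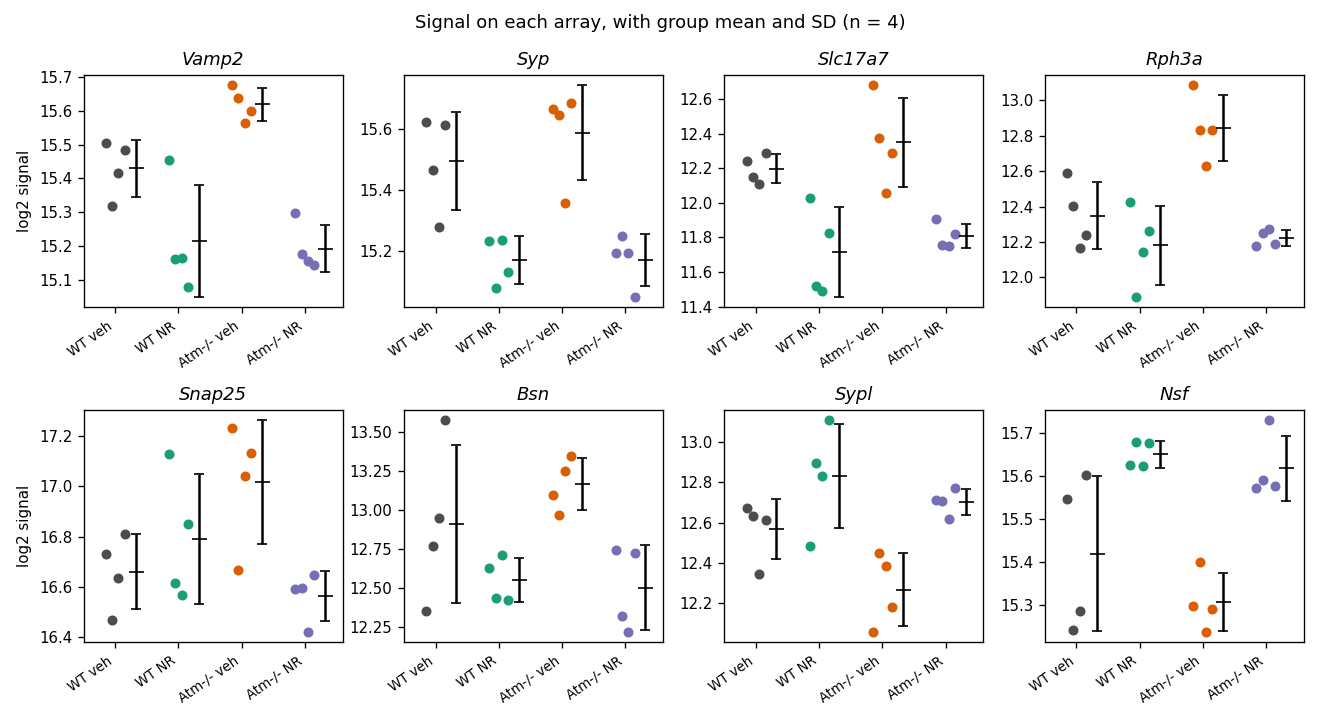
Log2 signal (vertical axis, a range of its own in each panel and not from 0) of 8 genes on each array. Points are single mice, and the bar beside them is the group mean with its SD (n = 4). In every panel all 4 Atm-/- NR points lie on 1 side of all 4 Atm-/- veh points.

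Among the SNARE proteins, 1 of 5 was called. Vamp2, the main SNARE of the synaptic vesicle, measured 15.50, 15.32, 15.42 and 15.48 in WT veh, 15.46, 15.16, 15.16 and 15.08 in WT NR, 15.67, 15.64, 15.56 and 15.60 in Atm-/- veh, and 15.30, 15.18, 15.16 and 15.14 in Atm-/- NR. The highest array of Atm-/- NR lay below the lowest of Atm-/- veh, and Atm-/- veh also lay above WT veh without overlap. The NR difference in Atm-/- was -0.43 ± 0.08 (SE), 1.34-fold lower (limma, adjusted p = 0.0122). Snap25, which supplies a part of the SNARE bundle from the plasma membrane, measured 17.23, 16.67, 17.04 and 17.13 in Atm-/- veh and 16.59, 16.60, 16.42 and 16.65 in Atm-/- NR. Its groups did not overlap, and its difference of -0.45 was not called (limma, adjusted p = 0.0564). A second probe of Snap25 gave -0.39 (adjusted p = 0.0617). Vamp1 and Snap29, a SNARE of other membranes too, differed by -0.17 and 0.19, with overlapping arrays.

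Of 6 SNARE regulators and recycling factors, 1 was called. Nsf, the ATPase that takes spent SNARE complexes apart, measured 15.55, 15.24, 15.29 and 15.60 in WT veh, 15.62, 15.68, 15.62 and 15.68 in WT NR, 15.30, 15.40, 15.24 and 15.29 in Atm-/- veh, and 15.57, 15.59, 15.73 and 15.58 in Atm-/- NR. All NR arrays of each genotype lay above all veh arrays of the same genotype. In Atm-/- the rise was 0.31 ± 0.08 (SE), 1.24-fold (limma, adjusted p = 0.0362), and the call was lost without any single one of the Atm-/- arrays other than veh 2 (adjusted p = 0.0531 to 0.11). It was seen on the brightest of 3 probes: the other 2 gave -0.20 (adjusted p = 0.51) and 0.19 (adjusted p = 0.522), and the mean of the 3 was not called (0.10, adjusted p = 0.668). Its cofactors Napa and Napb differed by -0.11 and -0.22, and the complexins Cplx1 and Cplx2, clamps of the SNARE complex, by -0.34 and -0.11; none of these passed.

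Of the 11 measured calcium sensors, 1 was called. Rph3a encodes rabphilin, which binds Rab3 on the vesicle and phospholipid through C2 domains. It measured 12.59, 12.40, 12.17 and 12.24 in WT veh, 12.43, 11.89, 12.14 and 12.26 in WT NR, 13.08, 12.83, 12.63 and 12.83 in Atm-/- veh, and 12.18, 12.25, 12.27 and 12.19 in Atm-/- NR. The Atm-/- veh arrays stood above the arrays of all 3 other groups, and those 3 groups overlapped each other. The NR difference in Atm-/- was -0.62 ± 0.12 (SE), 1.54-fold lower (limma, adjusted p = 0.0135). Rph3a and Vamp2 stayed called with any single array of the 16 left out (adjusted p up to 0.0478 and 0.0441). Syt1 and Syt2, the fast calcium sensors of release, differed by -0.05 and -0.14, within the spread of their arrays. Syt3 and Syt12 were lower in all 4 Atm-/- NR arrays than in all Atm-/- veh arrays, by -0.34 (adjusted p = 0.0911) and -0.38 (adjusted p = 0.179), and were not called. The remaining sensors, Syt4, Syt6, Syt7, Syt9, Syt11 and Doc2b, differed by between -0.17 and 0.13.

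None of 7 active zone scaffolds and priming factors was called (limma), and 1, Bsn, had an unadjusted p under 0.05, beside 30.5% of all genes. Between Atm-/- NR and Atm-/- veh, Bsn was the only one of the 46 that met the rule of the study's methods as recomputed here, beside 2.32% of all genes. Bsn encodes Bassoon, a large scaffold that holds vesicles at the active zone. It measured 12.36, 12.77, 12.95 and 13.58 in WT veh, 12.63, 12.44, 12.71 and 12.43 in WT NR, 13.10, 12.97, 13.25 and 13.35 in Atm-/- veh, and 12.75, 12.33, 12.22 and 12.72 in Atm-/- NR. Atm-/- NR lay below Atm-/- veh without overlap, while WT veh spread over more than either. The difference was -0.66 ± 0.21 (SE) (adjusted p = 0.0607; 0.0347 without WT veh 1 and 0.0181 without WT veh 4), and a much dimmer second probe gave 0.14 (adjusted p = 0.645). Rims1 and Rims2, which link vesicles to calcium channels, differed by 0.08 and -0.01, and their relative Rims3 by -0.16. The priming factors Unc13a and Unc13c differed by 0.21 and 0.27 on their brightest probes, and Pclo, the partner of Bassoon, by 0.12.

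Of 12 proteins of the vesicle membrane and surface, 2 were called, in opposite directions. Syp encodes synaptophysin, among the most abundant membrane proteins of the vesicle. It measured 15.62, 15.46, 15.28 and 15.61 in WT veh, 15.23, 15.08, 15.23 and 15.13 in WT NR, 15.66, 15.65, 15.36 and 15.69 in Atm-/- veh, and 15.19, 15.25, 15.19 and 15.05 in Atm-/- NR. In both genotypes all NR arrays lay below all veh arrays. The difference in Atm-/- was -0.42 ± 0.10 (SE), 1.34-fold lower (limma, adjusted p = 0.0198), and the call was lost without array 3 or 4 of Atm-/- NR or array 1 or 4 of Atm-/- veh (adjusted p = 0.0525 to 0.0651). Its relative Sypl, which is also found outside neurons, measured 12.67, 12.63, 12.35 and 12.61 in WT veh, 12.48, 12.89, 12.83 and 13.11 in WT NR, 12.06, 12.45, 12.38 and 12.18 in Atm-/- veh, and 12.71, 12.70, 12.62 and 12.77 in Atm-/- NR. The rise in Atm-/- was 0.43 ± 0.13 (SE), 1.35-fold (limma, adjusted p = 0.0467), with no overlap, while in WT the groups overlapped. The call was lost without any 1 of 11 arrays (WT veh 1, WT veh 2, WT NR 2, WT NR 3 and all of Atm-/- other than veh 2; adjusted p = 0.0521 to 0.136). A dimmer Sypl probe gave -0.25 (adjusted p = 0.421), and the mean of both was not called (0.09, adjusted p = 0.663). The synapsins Syn1, Syn2 and Syn3, which hold vesicles in reserve, differed by -0.17, -0.04 and 0.27, and Sv2a and Sv2b by -0.09 and -0.01, none called. A dimmer Syn2 probe gave -0.44 with no overlap, and was not called (limma, adjusted p = 0.0748). Snap91, the clathrin adaptor AP180, was 0.14 higher with no overlap, and was not called (adjusted p = 0.274).

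The Rab3 GTPases were not called on their brightest probes (0 of 3 by limma, and 0 with an unadjusted p under 0.05, beside 30.5% of all genes). Rab3a, Rab3b and Rab3c differed by 0.01, -0.30 and 0.26. The dimmer Rab3a probe lay lower on all Atm-/- NR arrays (13.04 to 13.38) than on all Atm-/- veh arrays (13.40 to 13.67). This probe was not called. Slc17a7, the VGLUT1 transporter that fills granule cell vesicles with glutamate, was called. It measured 12.24, 12.15, 12.11 and 12.29 in WT veh, 12.03, 11.52, 11.49 and 11.82 in WT NR, 12.68, 12.38, 12.05 and 12.29 in Atm-/- veh, and 11.90, 11.76, 11.75 and 11.82 in Atm-/- NR. All NR arrays lay below all veh arrays of the same genotype. The difference in Atm-/- was -0.54 ± 0.13 (SE), 1.45-fold lower (limma, adjusted p = 0.0263), and the call was lost without array 2, 3 or 4 of Atm-/- NR or array 1 or 4 of Atm-/- veh (adjusted p = 0.0532 to 0.082). Beside this, 1 of 11 granule cell markers was called, Reln, and it was lower. The mean of the 11 ran from 0.01 to 0.06 on the Atm-/- veh arrays and from -0.14 to 0.07 on the Atm-/- NR arrays, and its part in the result was not tested. None of the 8 neuronal markers was called (limma; 0 had an unadjusted p under 0.05). The smaller number of probes above background on the Atm-/- NR arrays also moved with these differences, and its part was not tested.

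The promoters of the 5 called genes found in RefSeq's table (GRCm38.p6; Vamp2 was not in it) are given because these transcripts were called in the same comparison. Each window runs from 250 bases before to 50 bases after a start site, 5′ to 3′ on the gene's strand. Where a gene has several starts (Rph3a 3, Sypl 2), the window with most matches is shown, or the first. Capitals mark GGGGCGGGG or its complement CCCCGCCCC (a GC box, as bound by Sp1) in the first 4, and CACGTG (an E-box) in Nsf.
Slc17a7 (chr7:45163671-45163970, strand plus): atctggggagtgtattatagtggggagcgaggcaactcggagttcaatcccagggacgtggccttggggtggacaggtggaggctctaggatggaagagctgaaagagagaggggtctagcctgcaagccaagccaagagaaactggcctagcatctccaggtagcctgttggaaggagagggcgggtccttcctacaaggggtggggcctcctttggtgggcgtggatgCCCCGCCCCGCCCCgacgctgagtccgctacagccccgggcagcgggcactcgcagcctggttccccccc
Syp (chrX:7638330-7638629, strand plus): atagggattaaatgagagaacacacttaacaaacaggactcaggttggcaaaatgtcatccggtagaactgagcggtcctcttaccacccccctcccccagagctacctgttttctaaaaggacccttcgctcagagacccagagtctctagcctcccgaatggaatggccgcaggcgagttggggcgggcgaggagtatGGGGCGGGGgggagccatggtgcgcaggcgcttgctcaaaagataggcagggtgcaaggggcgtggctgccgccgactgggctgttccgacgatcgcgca
Rph3a (chr5:121010043-121010342, strand minus): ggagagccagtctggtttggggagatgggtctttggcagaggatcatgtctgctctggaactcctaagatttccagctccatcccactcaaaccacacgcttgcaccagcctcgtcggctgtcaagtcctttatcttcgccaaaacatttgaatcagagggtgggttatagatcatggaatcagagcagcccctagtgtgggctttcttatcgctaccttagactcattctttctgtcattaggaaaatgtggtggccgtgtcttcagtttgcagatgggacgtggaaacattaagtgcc
Sypl (chr12:32953936-32954235, strand plus): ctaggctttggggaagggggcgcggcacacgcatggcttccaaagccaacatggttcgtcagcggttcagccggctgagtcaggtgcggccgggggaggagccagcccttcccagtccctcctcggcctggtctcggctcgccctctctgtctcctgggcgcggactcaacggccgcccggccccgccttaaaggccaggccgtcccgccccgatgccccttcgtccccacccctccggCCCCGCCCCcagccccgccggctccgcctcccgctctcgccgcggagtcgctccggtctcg
Nsf (chr11:103954007-103954306, strand minus): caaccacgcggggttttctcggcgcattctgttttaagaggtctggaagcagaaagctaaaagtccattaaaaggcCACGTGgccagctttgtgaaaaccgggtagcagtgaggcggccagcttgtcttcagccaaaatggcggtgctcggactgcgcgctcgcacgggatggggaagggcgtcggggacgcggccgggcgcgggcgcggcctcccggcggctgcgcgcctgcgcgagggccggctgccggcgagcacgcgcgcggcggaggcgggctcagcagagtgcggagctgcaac

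Slc17a7 held the GC box 2 times, in overlap, and Syp and Sypl 1 time each, so it occurred in genes that fell and in 1 that rose. None of the Rph3a windows held it. Promoters were found for 37 of the 47 genes (51 windows), and 16 of the 37 genes (43.2%) held the GC box in at least 1, beside 12.9% of the 27025 genes in the table. CACGTG was in the windows of Nsf, Napa, Syt6 and Sv2b (10.8% of the 37; 8.09% of all). The letters TTCAGCACC or GGTGCTGAA, a part of the site of the neuronal repressor REST, were in those of Syn1 and Unc13a (5.41%; 0.433% of all). TGACGTCA, the cyclic AMP response element, was in those of Syn1 and Napa (5.41%; 2.03%). Each motif was searched on both strands, and a match is no evidence of binding.

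**Figure D3:**
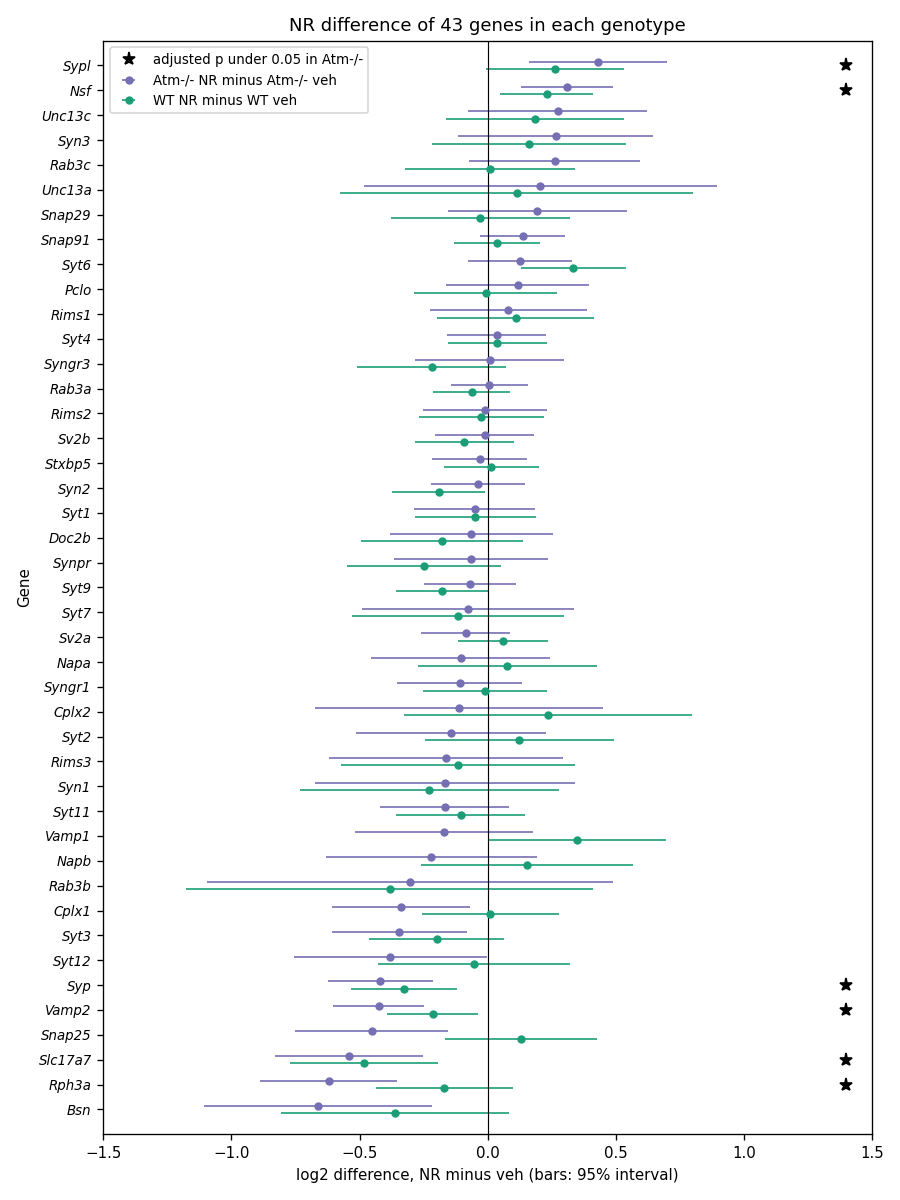
Log2 difference of NR minus veh (horizontal axis) with its 95% interval for 43 genes (vertical axis, by the difference in Atm-/-), in Atm-/- mice (purple) and WT mice (green); Slc17a6, Stx1a and Sv2c, whose intervals are far wider, are left out. Stars mark the 6 genes called in Atm-/-. The green points of Slc17a7, Syp, Vamp2, Nsf and Sypl lie on the same side of 0 as the purple ones, while those of Snap25 and Vamp1 lie on the opposite side.

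In WT mice none of the 46 genes was called between NR and veh (limma; 7 had an unadjusted p under 0.05), beside 0% of all genes (8.84% at an unadjusted p under 0.05). The arrays of 5 genes did not overlap, 3 lower and 2 higher, beside 4.58% of all genes (2.87% lower and 1.71% higher). Slc17a7 differed by -0.48 (95% interval -0.77 to -0.19; adjusted p = 0.494), Syp by -0.33 (adjusted p = 0.494) and Synpr, or synaptoporin, a further relative of synaptophysin, by -0.25 (adjusted p = 0.732). Nsf differed by 0.23 (adjusted p = 0.573). Syt6, a synaptotagmin of the same class as Syt3, measured 12.86, 12.76, 13.03 and 13.17 in WT veh and 13.46, 13.20, 13.29 and 13.22 in WT NR, a difference of 0.33 (adjusted p = 0.494). Slc17a7, Syp and Synpr were lower on all WT NR arrays than on all WT veh arrays, and Nsf and Syt6 higher. A much dimmer Syt6 probe had means of 7.98 in WT veh and 9.02 in WT NR, with overlapping arrays. In Atm-/- this probe ran from 7.91 to 8.54 in veh and from 8.65 to 9.26 in NR, without overlap. It was called in neither genotype.

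The NR differences of WT and Atm-/- mice share no arrays. They had the same sign for 31 of the 46 genes (67.4%), beside 71.3% of all genes. The difference between both NR effects was called for none (limma; 3 had an unadjusted p under 0.05: Snap25, Rph3a and Vamp1), beside 0% of all genes (5.96% at an unadjusted p under 0.05). For Snap25 it was -0.58 (95% interval -1.0 to -0.16; adjusted p = 0.839), with Snap25 0.13 in WT and -0.45 in Atm-/-. For Rph3a it was -0.45 (-0.83 to -0.07; adjusted p = 0.839) and for Vamp1, a SNARE of vesicles in fast-firing neurons, -0.52 (-1.01 to -0.03; adjusted p = 0.839). For Slc17a7 it was -0.06, with an interval of -0.46 to 0.35.

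Averaged over both genotypes, a comparison added after the data were seen, the NR difference was called for 8 of the 46 genes (17.4%), beside 13.4% of all genes (5.94% lower and 7.44% higher). The called falls were Slc17a7 (-0.51, adjusted p = 0.00809), Bsn (-0.51, adjusted p = 0.0401), Rph3a (-0.39, adjusted p = 0.0158), Syp (-0.37, adjusted p = 0.00772) and Vamp2 (-0.32, adjusted p = 0.00773). The called rises were Sypl (0.35, adjusted p = 0.0259), Nsf (0.27, adjusted p = 0.0149) and Syt6 (0.23, adjusted p = 0.0427). For Syn2 a dimmer probe was called (-0.40, limma, adjusted p = 0.026), while its brightest was not (-0.11, adjusted p = 0.238). Leaving out 1 array at a time, the calls of Syt6 (14 of 16 arrays, adjusted p = 0.0507 to 0.0815), Bsn (10 of 16, 0.0537 to 0.0817) and Sypl (Atm-/- veh 1 or Atm-/- veh 4, 0.0533 and 0.0566) were lost. The veh arrays of both slides had fewer spots marked as outliers (226 to 412) than the NR arrays (487 to 608), a measure that moved with the comparison and whose part in it was not tested.

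Without NR, loss of Atm changed the level of none of the 46 genes past the threshold (Atm-/- veh against WT veh, limma; 9 had an unadjusted p under 0.05), beside 0.0538% of all genes (16.8% at an unadjusted p under 0.05). Rph3a was 0.49 higher in Atm-/- veh (95% interval 0.23 to 0.76; adjusted p = 0.172) and Vamp2 0.19 higher (adjusted p = 0.319). These were the 2 genes whose arrays did not overlap, beside 8.74% of all genes (3.9% higher). The comparison of Atm-/- NR with Atm-/- veh uses the same Atm-/- veh arrays, so the values of both genes in it are given side by side and not as a second observation. For Pclo the probes disagreed: the brightest gave -0.37 and another -0.21, while a far dimmer one gave 0.31, all 3 with an unadjusted p under 0.05 and none called (adjusted p = 0.245, 0.31 and 0.313).

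With NR in both genotypes (Atm-/- NR against WT NR), none of the 46 genes was called (limma; 0 had an unadjusted p under 0.05), beside 0.0597% of all genes (4.34% at an unadjusted p under 0.05). Rab3b alone had arrays that did not overlap, beside 4.53% of all genes (2.74% higher). It measured 12.32, 11.25, 11.09 and 13.45 in WT veh, 11.71, 11.44, 11.81 and 11.62 in WT NR, 12.15, 12.31, 12.52 and 12.13 in Atm-/- veh, and 12.03, 12.01, 11.90 and 11.95 in Atm-/- NR, a difference of 0.33 (adjusted p = 1). The WT veh arrays of this gene spread over more than those of the 3 other groups together, and WT veh 4 was the highest.

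Several probes of a gene did not always move alike. Of 18 genes with more than 1 kept probe, 8 had probes of opposite sign between Atm-/- NR and Atm-/- veh. On single probes, 8 of 68 were called, beside 9.04% of all probes. The 2 that are not the brightest of their gene belong to Stxbp5, or tomosyn, which binds syntaxin in place of Vamp2, and Unc13c, a Munc13 enriched in the cerebellum. The Stxbp5 probe measured 9.98, 10.12, 10.05 and 10.06 in Atm-/- veh and 10.62, 10.57, 10.66 and 10.48 in Atm-/- NR, a rise of 0.53 (adjusted p = 0.0193), while its brightest probe gave -0.03. The Unc13c probe measured 12.59, 12.35, 12.80 and 12.63 in Atm-/- veh and 12.21, 12.14, 11.88 and 12.01 in Atm-/- NR, a difference of -0.53 ± 0.13 (SE) (adjusted p = 0.0215), while the brightest, at 13.01, 13.09, 12.97 and 13.10 in Atm-/- veh and 13.49, 13.02, 13.30 and 13.46 in Atm-/- NR, gave 0.27 (adjusted p = 0.294). The probes of Snap25 and Syt3 gave differences close to each other.

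**Figure D4:**
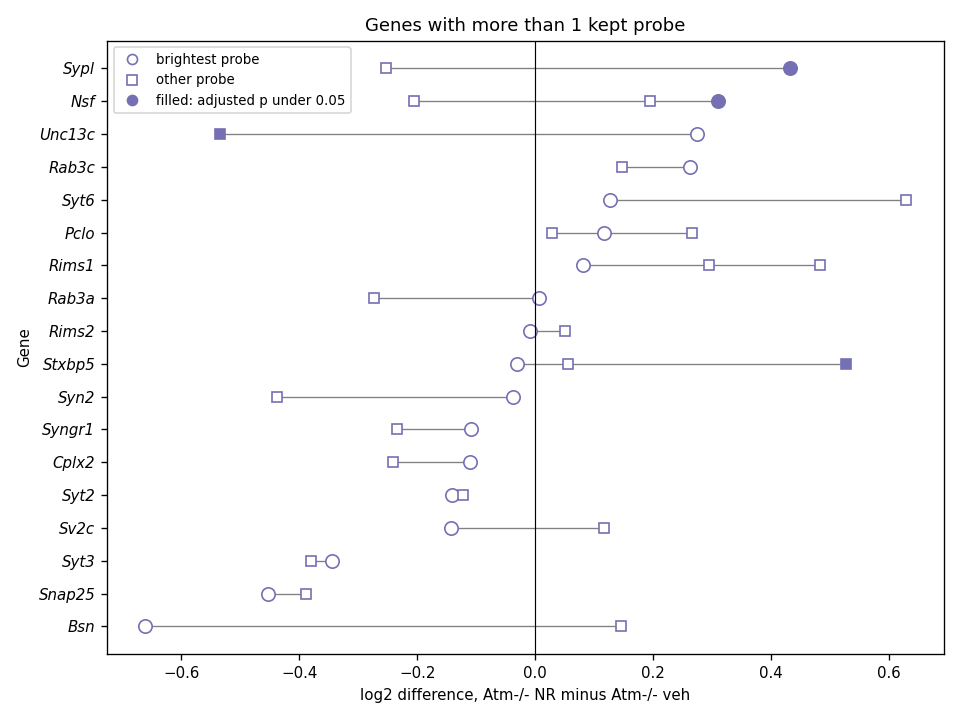
Log2 difference of Atm-/- NR minus Atm-/- veh (horizontal axis) for every kept probe of the 18 genes with more than 1. Circles are the brightest probe of a gene, squares the others, filled marks are called. The 2 marks of Unc13c, at -0.53 and 0.27, lie on opposite sides of 0.

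The 3 genes with the widest ranges varied widely within groups. Slc17a6, the VGLUT2 transporter, measured 10.58, 5.91, 5.38 and 10.83 in WT veh, 7.14, 12.47, 12.75 and 11.28 in WT NR, 7.74, 6.80, 9.72 and 5.25 in Atm-/- veh, and 7.38, 12.41, 12.19 and 8.69 in Atm-/- NR. High and low arrays were found in every group. Its NR difference was 2.79 in Atm-/- (95% interval -0.74 to 6.32; adjusted p = 0.29) and 2.73 in WT (adjusted p = 0.748), not called. Averaged over both genotypes it was 2.76 (95% interval 0.27 to 5.26; unadjusted p = 0.0324, adjusted p = 0.142), again not called. Slc17a8, the VGLUT3 transporter and not one of the 47, measured 8.24, 5.69, 5.37 and 8.35 in WT veh, 5.84, 9.88, 10.03 and 9.0 in WT NR, 6.27, 6.24, 7.20 and 5.46 in Atm-/- veh, and 5.81, 9.80, 9.76 and 6.49 in Atm-/- NR. It was high on the arrays that were high for Slc17a6, and its averaged NR difference was 1.72 (unadjusted p = 0.0443, adjusted p = 0.171), not called. A list of markers of brain stem, deep nuclei and precerebellar neurons, without Slc17a6 (7 of 14 genes used), had its mean between -0.31 and 0.45 on all arrays. The mean of the 9 forebrain markers was 0.27 and 1.77 on WT NR 2 and WT NR 3. It was 0.56 and 0.30 on Atm-/- NR 2 and Atm-/- NR 3, and 3.98 on WT veh 4. On the other arrays it was -1.06 to -0.03, among them WT veh 1 (-0.52) and WT NR 4 (-0.72), where Slc17a6 was also high. The part of either list in the Slc17a6 values was not tested.

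Stx1a, a SNARE of the plasma membrane, measured 6.85, 6.28, 5.82 and 11.62 in WT veh, 6.05, 8.02, 7.65 and 6.26 in WT NR, 6.35, 6.61, 6.07 and 6.19 in Atm-/- veh, and 6.23, 7.98, 8.02 and 5.60 in Atm-/- NR, and was well above background on 15 arrays. WT veh 4, the array with the highest forebrain and choroid plexus markers, was the highest for Stx1a. On it, the choroid plexus transcript Ttr measured 18.05 (7.13 to 12.62 on the other 15). Without WT veh 4, the 6 genes called between Atm-/- NR and Atm-/- veh stayed called and Bsn was added.

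Sv2c, a vesicle glycoprotein, was read by 2 probes. The brighter one measured 5.32, 6.42, 6.10 and 4.99 in WT veh, 10.97, 6.24, 10.69 and 5.58 in WT NR, 5.79, 5.77, 10.43 and 5.88 in Atm-/- veh, and 5.51, 10.42, 5.68 and 5.69 in Atm-/- NR. It was at 10.42 to 10.97 on Atm-/- NR 2, Atm-/- veh 3, WT NR 3 and WT NR 1, and at 4.99 to 6.42 on the other 12 arrays. The dimmer Sv2c probe measured 6.50, 7.32, 7.38 and 6.39 in WT veh, 7.22, 6.80, 6.92 and 6.54 in WT NR, 6.49, 6.73, 6.51 and 6.47 in Atm-/- veh, and 6.34, 7.28, 6.42 and 6.62 in Atm-/- NR, without such a split. Of the 37253 kept probes, 5 separated the same 4 arrays from the other 12 by a gap over 0.5, and the 4 named ones belong to Sv2c, Arsk, Map1b and Tmem161b, all on chromosome 13. These 4 probes were higher on the 4 arrays, and the unnamed probe was lower. For Map1b and Tmem161b it was a dimmer probe that split so, and the brightest probe of each overlapped between the 4 arrays and the other 12.

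**Figure D5:**
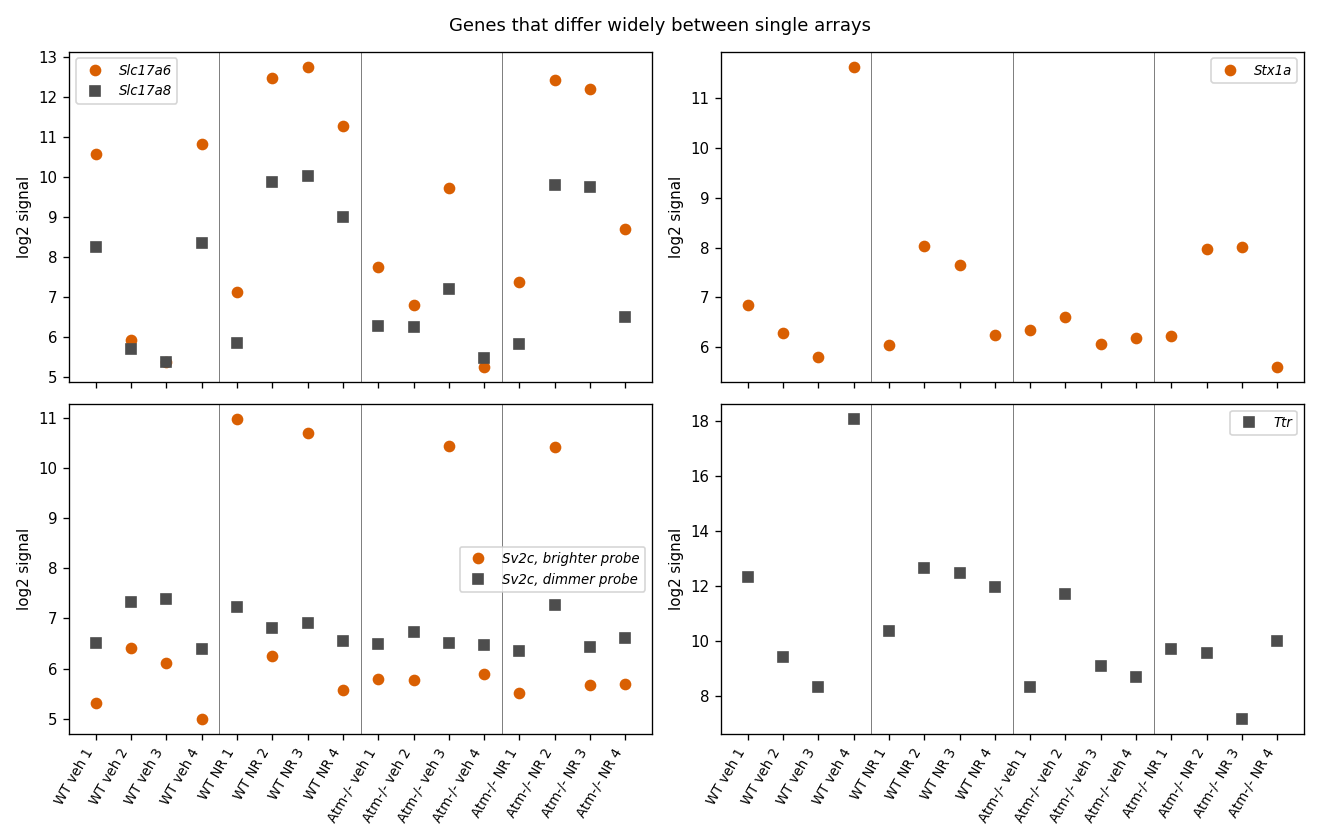
Log2 signal (vertical axis) on each of the 16 arrays (horizontal axis) of Slc17a6 and Slc17a8, of Stx1a, of both Sv2c probes, and of Ttr. Slc17a6 and Slc17a8 rise and fall on the same arrays, WT veh 4 is highest for Stx1a and Ttr, and the brighter Sv2c probe is above 10 on 4 arrays.

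A further 100 genes of the vesicle cycle, outside the 47, were read from lists written for endocytosis, other SNAREs, other sensors, other active zone proteins and other vesicle proteins; 97 had a kept probe. Between Atm-/- NR and Atm-/- veh, 13 were called (13.4%, beside 11.5% of all genes), 9 lower and 4 higher. In endocytosis and recycling, 6 of 26 were called. Subunits of the AP2 clathrin adaptor were lower: Ap2a2 decreased by 0.49 (adjusted p = 0.0131), Ap2b1 decreased by 0.98 (adjusted p = 0.0341) and Ap2m1 decreased by 0.47 (adjusted p = 0.0383). The endophilin gene Sh3gl1 fell by 0.53 (adjusted p = 0.0078). Amph, or amphiphysin, rose by 0.23 (adjusted p = 0.0434) and the adaptor Eps15 by 0.42 (adjusted p = 0.0333).

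Among 21 other SNAREs and SM proteins, Stxbp2, a Munc18 that guides syntaxin, fell by 0.63 (adjusted p = 0.0135) and Stx3, the syntaxin of ribbon synapses, fell by 0.49 (adjusted p = 0.0343). The plasma membrane syntaxins Stx2 and Stx4a rose by 0.35 (adjusted p = 0.0298) and 0.29 (adjusted p = 0.0464). Among 13 other vesicle proteins, Sncb, or beta-synuclein, fell by 0.66 (adjusted p = 0.016), the amino acid transporter Slc6a17 fell by 0.42 (adjusted p = 0.0287) and Dnajc5, the cysteine string protein, a chaperone of Snap25, fell by 0.24 (adjusted p = 0.0281). In the comparison of Atm-/- NR with Atm-/- veh, none of the 9 other calcium sensors or the 28 other active zone proteins and calcium channels with a kept probe was called (limma). Of these, 2 and 8 had an unadjusted p under 0.05, beside 30.5% of all genes. In the other 4 comparisons of the design none of the 97 was called by limma, beside 0% to 0.0597% of all genes. At an unadjusted p under 0.05 there were 3 to 17 of the 97, beside 4.34% to 16.8% of all genes. Averaged over both genotypes, the NR difference was called for 17 of the 97 (17.5%, beside 13.4% of all genes), 12 lower and 5 higher. They included 2 of the 9 other calcium sensors, Syt10 and Syt13, both synaptotagmins. Syt10 measured 10.50, 10.82, 11.65 and 12.25 in WT veh, 9.92, 8.64, 10.18 and 9.68 in WT NR, 13.03, 11.77, 12.41 and 12.71 in Atm-/- veh, and 11.83, 10.17, 11.51 and 12.09 in Atm-/- NR. Its WT NR arrays lay below its WT veh arrays without overlap, while the Atm-/- groups overlapped. The averaged difference was -1.39 (adjusted p = 0.0213), and that in WT alone was -1.70 (adjusted p = 0.494). In Atm-/- alone it was -1.08 (limma, adjusted p = 0.16). Syt10 was also higher in Atm-/- than in WT, by 1.17 without NR (limma, adjusted p = 0.292). With NR it was higher by 1.79 (adjusted p = 0.491), and neither was called. Averaged over both genotypes, Syt13 differed by 0.24 (adjusted p = 0.0438). Also called were Rab3d, a further Rab3 GTPase, at -0.32 (adjusted p = 0.0117), and Rab3gap1, a subunit of the enzyme that switches Rab3 off, at -0.30 (adjusted p = 0.035).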

How the data were processed

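The deposited scanner files (1 per array, Feature Extraction 12.0.3.1) give the intensity of 62976 spots after subtraction of local background, with no scaling across arrays by the authors. They also deposited a table of scores, given as z-scores. The array design of the files names build mm9, and gene names came from matching each probe's accession to RefSeq (GRCm38.p6), which was used for names and promoters only.

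Of 59305 spots that are no controls, probes well above background (at least 0.5 of their spots) on all 4 arrays of 1 group or more were kept. Their log2 intensity was quantile normalized, spots marked as outliers were set aside, which removed 788 probes, and spots of a probe were averaged, leaving 37253 probes. A gene was read on its brightest kept probe. A probe of Syn3 was lost to outlier marks and 1 of Bsn to the filter. No member spot was saturated. The number of arrays limits the precision, and each array is 1 mouse.

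Limma 3.58.1 in R 4.3.3 (with data.table, version 1.17.8) fitted 4 group means over 16 arrays (12 residual degrees of freedom), with Benjamini-Hochberg adjustment over all kept probes. The model was tested on simulated data. Replicate numbers were not taken as pairs (correlations of same-numbered arrays from -0.15 to 0.20). For the 4 pairs of Atm-/- NR with WT NR the correlations were all above 0 (0.05 to 0.20). The members and lists were chosen with earlier results of these data known. Named were Atm, each called member, in each comparison up to 3 members with the largest rise and 3 with the largest fall among those whose groups did not overlap, members whose probes disagreed, members without a kept probe and called genes of the further lists; other genes were named after their values were seen. Alternatives were scaling to the 75th percentile, normexp (offset 50, medians), the deposited scores, no filter, probes above background on all 16 arrays, each array left out, the replicate number or slide as a block, only the arrays compared, the mean of all probes, only arrays with Y-linked signal, and the methods' t-test and rule. Keeping outlier spots and the NR difference over both genotypes were added after the data were seen.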

Additional observations from a re-analysis of the deposited data

Results flagged for a closer look

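In 9 of 184 groups of 4 arrays (46 genes in 4 groups) 1 array stood apart from the other 3 by more than Dixon's 95% critical value, close to the 9.2 that chance gives. On Atm-/- veh 3, Syp measured 15.36 (next array 15.65) and Syngr3, or synaptogyrin 3, measured 13.76 (14.17), both low, and Sv2c measured 10.43 (5.88), high. Sv2c was also high on Atm-/- NR 2, at 10.42 (5.69). Sv2a was high on WT veh 1, at 14.03 (13.86), and Syt12 low on WT veh 4, at 8.44 (9.06). Syn2 was high on Atm-/- veh 2, at 15.38 (15.29), Unc13a on WT NR 2, at 8.14 (7.02), and Nsf on Atm-/- NR 3, at 15.73 (15.59). Of these genes, Syp and Nsf were called between Atm-/- NR and Atm-/- veh; without the array that stood apart, Syp stayed called and Nsf was not (adjusted p = 0.11).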

How the results depend on the processing

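Leaving out 1 array at a time, the genes called between Atm-/- NR and Atm-/- veh numbered 2 to 7 (6 with all arrays), those for NR over both genotypes 5 to 8 (8 with all), and those of the other 4 comparisons stayed at 0. Over all 37253 probes, 862 to 4405 were then called between Atm-/- NR and Atm-/- veh (3366 with all arrays). For NR over both genotypes it was 2265 to 4695 (4035 with all). With the mean of all probes of a gene, 5 were called for NR over both genotypes. On the 12 arrays with Y-linked signal, 3 were called between Atm-/- NR and Atm-/- veh and 5 for NR over both genotypes; with fewer arrays, 1.51% and 6.57% of all genes were. The methods' t-test on z-scores, at its threshold and without adjustment, called 5 for loss of Atm without NR, 15 for NR in Atm-/- mice, 6 for NR in WT mice and 1 for loss of Atm with NR, beside 13.5%, 33.7%, 7.48% and 7.03% of all genes. After Benjamini-Hochberg these were 0, 5, 0 and 0, beside 0%, 12.5%, 0% and 0.0179% of all genes. The rule of the methods was recomputed here on the brightest kept probes, so its calls can differ from the study's own. The paper's list of genes with the largest scores held Syt6 but neither Bsn nor Slc17a7. As recomputed, the rule called 1 for NR in Atm-/- mice (Bsn) and 1 for NR in WT mice (Slc17a7), beside 2.32% and 1.11% of all genes, and 0 in the other comparisons of groups. The other alternatives kept these counts within 1.5 times. Among members, the differences of called genes, of the largest changes without overlap and of Pclo were followed through the alternatives. None of these changed sign. Other differences named above were not followed. Replicate numbers were not taken as pairs in the main model. With the replicate number as a block, 5 were called between Atm-/- NR and Atm-/- veh, beside 10.7% of all genes. Sypl (limma, adjusted p = 0.0546) and Nsf (0.0608) were lost and Snap25 was gained. The slide as a block could be fitted for the NR comparisons only, since each slide holds 1 genotype. Sypl was also lost with normexp (0.051) and without a filter (0.0589). Signal over background limits what can be said of dim genes: the probe of Stx1a was well above background on 15 of 16 arrays.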
